A study of Homo sapiens with 13 samples.

Results

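The complement components and regulators described here are 9 genes of hFOB 1.19 osteoblasts: C1R, C1S, C3, CFB, CFI, SERPING1, CD46, CD55 and CD59. They were taken by symbol from the 43836 genes of a raw read count table, and all 9 had a row. The cells are an established human line, made from fetal osteoblasts that were immortalized with a temperature-sensitive viral large T antigen, so every group shares 1 genetic background and has no primary bone cell beside it. Medium with 10% fetal bovine serum (FBS) made the positive control and serum-free medium the negative control, with the DMSO vehicle in both. The remaining groups were serum-starved like the negative control and received 1 µg/mL of a compound. RES is the stilbene resveratrol, POG the anthocyanin peonidin-3-O-glucoside, and DEG is the remaining one. The labels do not spell out DEG, and the treatment text names delphinidin-3-glucoside as the third compound. There were 2 positive control, 2 negative control, 3 RES, 3 POG and 2 DEG libraries of poly-A selected RNA, and DEG replicate 3 was not analysed here. Nothing in the labels says that libraries of a group came from separate cultures, so the p-values measure only the spread between these libraries, which may be technical.

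Complement is a cascade of blood and tissue proteins that marks surfaces for uptake or lysis. In the classical pathway, the proteases C1r and C1s sit on the recognition protein C1q, and the serpin C1 inhibitor, encoded by SERPING1, inactivates both. All pathways meet at C3, whose cleavage product C3b binds factor B (CFB) to form the convertase of the alternative pathway. Host cells are protected by factor I (CFI), a protease that inactivates C3b with a cofactor, and by membrane proteins. CD46 is such a cofactor, CD55 speeds the decay of convertases, and CD59 blocks assembly of the membrane attack complex. Most plasma complement comes from the liver, but fibroblasts and osteoblasts are also known to make components, and C3 has been tied to the support of osteoclast formation by bone marrow stromal cells.

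Depth was similar across libraries, from 38464619 to 51416358 counted reads. A member that passed the low-count filter had 371 to 22792 reads in a library. Osteoblast identity was only partly shown by its markers: 8 of 12 reached a mean of 1 CPM (reads of a gene relative to the library's total after TMM scaling, a correction for differences in composition), led by COL1A1 at a mean of 2676 CPM, whereas SP7 had a mean of 0.101 CPM and IBSP a single read in all 12 libraries. Of 10 macrophage and leukocyte markers only CSF1R reached 1 CPM, and TYROBP and CD3E had no read. Of 8 hepatocyte markers only SERPINA1 did, and APOA2, TTR and FGA had no read. These genes matter here because macrophages and hepatocytes are the usual sources of complement RNA.

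C1R and C1S are neighbours on chromosome 12 (GENCODE v44 on build hg38), C1S on the plus strand at chr12:6988259-7071032 and C1R on the minus strand at chr12:7080214-7092540. CD55 (chr1:207321519-207386804) and CD46 (chr1:207752037-207795513) both lie on the plus strand of the regulator cluster on chromosome 1. CD59 (chr11:33703010-33736479, minus) and SERPING1 (chr11:57597387-57619171, plus) share chromosome 11 but are far apart. C3 is at chr19:6677704-6730562 on the minus strand, CFB at chr6:31945650-31952086 on the plus strand in the major histocompatibility region, and CFI at chr4:109731008-109802150 on the minus strand. Reads were counted over whole genes, so exonic reads of all isoforms are in 1 value.

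Promoters are shown for CFB, C1R and CD59, the members in whose windows a motif match was found. The levels of CFB and C1R were lower with serum, and that of CD59 was higher. CD46 and CD55 were also lower with serum, but their windows held no match and are not shown. Each window shown runs from 250 bases before to 50 bases after a RefSeq transcription start (GRCh38.p14), 5′ to 3′ on the gene's strand. Where RefSeq lists several starts, the first listed was used. CFB is chr6:31945845-31946144 on the plus strand, C1R is chr12:7092396-7092695 on the minus strand, and CD59 is chr11:33736430-33736729 on the minus strand. Capitals mark motif matches.
CFB: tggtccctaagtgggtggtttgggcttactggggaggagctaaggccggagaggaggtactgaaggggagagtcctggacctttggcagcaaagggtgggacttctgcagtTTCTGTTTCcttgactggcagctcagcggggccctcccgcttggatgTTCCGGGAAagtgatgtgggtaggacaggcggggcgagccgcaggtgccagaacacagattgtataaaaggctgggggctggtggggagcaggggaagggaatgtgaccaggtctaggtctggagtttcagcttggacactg
C1R: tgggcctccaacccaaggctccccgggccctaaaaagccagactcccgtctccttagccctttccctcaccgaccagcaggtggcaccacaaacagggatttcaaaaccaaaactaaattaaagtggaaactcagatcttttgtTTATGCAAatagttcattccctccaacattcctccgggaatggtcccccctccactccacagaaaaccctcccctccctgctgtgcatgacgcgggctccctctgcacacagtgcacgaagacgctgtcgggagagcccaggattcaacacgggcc
CD59: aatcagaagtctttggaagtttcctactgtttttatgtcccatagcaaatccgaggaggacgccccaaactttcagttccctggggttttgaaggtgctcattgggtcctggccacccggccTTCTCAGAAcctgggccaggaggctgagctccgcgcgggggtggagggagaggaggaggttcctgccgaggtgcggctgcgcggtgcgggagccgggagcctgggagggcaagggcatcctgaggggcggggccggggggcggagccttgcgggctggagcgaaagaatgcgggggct
In CFB the capitals are TTCTGTTTC, at position −139 from the start, and TTCCGGGAA, at −92. In C1R they are TTATGCAA, at −106, and in CD59 TTCTCAGAA, at −128. 6 of the 9 members had a window in the table (C1R, CFB, CFI, CD46, CD55 and CD59), and both strands were searched for 5 motifs. The STAT motif TTCNNNGAA was in CFB and CD59, and in 7.88% of all 27305 windows. The interferon response core GAAANNGAA was in CFB alone and in 8.29% of all windows. The C/EBP motif TTGCNNAA was in C1R alone and in 10.6%. The AP-1 motif TGANTCA (7.76% of windows) and the NF-kB motif (5.72%) were in none of the 6. The matches describe letters in the windows and were not tied to any factor.

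Per unit of transcript length, the classical proteases and C3 led. In negative controls the level per kilobase (RPKM, over the representative MANE transcript, with isoform use not known) was 193 ± 3.06 for C1R, 99.1 ± 0.384 for C3 and 63.9 ± 2.02 for C1S (SD, n = 2). The membrane regulators CD46, CD55 and CD59 followed at 55.6 ± 1.14, 32.6 ± 1.11 and 27.9 ± 0.239 RPKM (SD, n = 2). SERPING1 and CFB were lower, at 12 ± 0.424 and 5.66 ± 0.147 RPKM (SD, n = 2). The CFB value may be understated, since another gene model on the same strand shares 90.8% of its exon bases. In positive controls C1R (111 ± 3.31) and C3 (58.6 ± 2.19) still led, but CD46 (37.3 ± 0.821) and CD59 (36.2 ± 0.131) stood above C1S (32.1 ± 1.31 RPKM; SD, n = 2 each). The 9 genes together took 0.168% of all reads in negative controls and 0.113% in positive controls.

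CFI, the protease that shuts down C3b, was barely detected. It had 38 reads in all 12 libraries, between 1 and 7 in each, and fell below the low-count filter. On plain library totals, without TMM scaling, the level was 0.038 CPM in negative controls (95% exact Poisson interval 0.00783 to 0.111), 0.0947 in positive controls (0.0433 to 0.18), 0.0756 in RES (0.0363 to 0.139), 0.0894 in POG (0.0462 to 0.156) and 0.0516 in DEG (0.0141 to 0.132). These intervals overlap and cover counting error only. CFI was left out of the main test, so nothing is concluded on differences between groups. In GENCODE v44, 79% of CFI's exon bases also belong to another gene model on the same strand. That model had no row in the count table, and the handling of reads shared by genes was not stated. The results below are for the other 8 members.

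**Figure D1:**
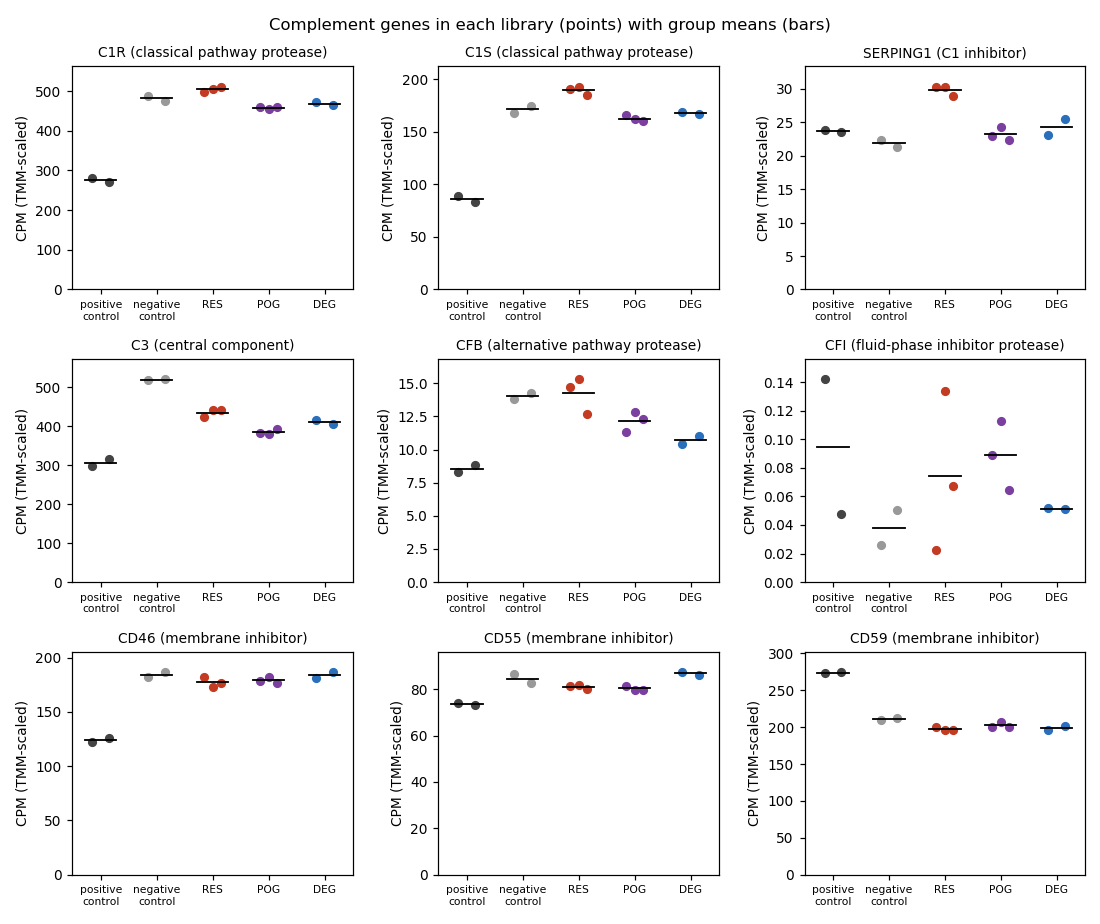
Level of each complement gene in every library, in TMM-scaled CPM on an axis from 0 (y), by group (x); points are libraries and bars are group means (2 or 3 libraries). C1R, C1S, C3, CFB and CD46 are lowest in both positive controls, CD59 is highest there, SERPING1 is highest in the 3 RES libraries, and CFI stays under 0.15 CPM.

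Serum against no serum was the widest contrast for these genes. With serum, RNA for both classical proteases, C3, CFB, CD46 and CD55 was lower than in starved cells, CD59 was higher, and SERPING1 did not pass the test. At a false discovery rate (FDR) under 0.05 in edgeR's exact test, 6 of the 8 tested members were lower in positive than in negative controls and 1 was higher. Over all 17092 genes tested, 20.9% were lower and 21.4% higher. The members' median log2 fold change was −0.65, against −0.0059 over all genes. In RNA from whole cultures, fewer cells of a kind and less RNA per cell cannot be told apart.

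C1S, which cleaves C4 and C2 once C1r has activated it, changed the most. Its level was 88.5 and 83.6 CPM in positive controls and 168 and 175 CPM in negative controls, and the groups did not overlap. The log2 fold change was −0.99 (SE 0.0387), and starved cells had 1.99 times the level (FDR = 1.17e-119). C1R, its activating partner, stood at 281 and 270 CPM with serum and at 487 and 476 CPM without. That is a log2 fold change of −0.81 (SE 0.0303, FDR = 1.23e-108). C1R shares 25.2% of its exon bases with the C1r-like gene C1RL on the same strand. C1RL was also lower with serum, at 76.3 ± 2.09 against 91.7 ± 2.98 CPM (SD, n = 2 each; FDR = 1.83e-07), a smaller log2 fold change of −0.27.

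SERPING1, the inhibitor of both proteases, did not follow them. It had 23.8 and 23.6 CPM with serum and 22.4 and 21.3 CPM without, a log2 fold change of 0.12 (95% interval −0.02 to 0.25, FDR = 0.169). The reads of the inhibitor per 100 reads of C1S were 26.9 and 28.2 in positive controls and 13.4 and 12.2 in negative controls. Such a ratio is taken within a library and does not depend on the scaling between libraries.

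C3, the component on which all pathways converge, had 298 and 315 CPM with serum and 517 and 520 CPM without. The log2 fold change was −0.76 (SE 0.0327, FDR = 1.42e-85). CFB, which joins C3b in the alternative convertase, was counted at a far lower level. It had 8.28 and 8.8 CPM with serum and 13.8 and 14.3 CPM without (log2 fold change −0.72, SE 0.0964, FDR = 3.2e-12). For both genes the groups did not overlap. The ratio of C3 to CFB reads was nearly the same, 35.9 ± 0.206 with serum and 37 ± 0.817 without (SD, n = 2 each), and the ratio of C3 to C1R reads was 1.11 ± 0.0749 and 1.08 ± 0.0212. In the annotation 90.8% of the CFB exon bases also belong to a readthrough gene on the same strand, which had 0 reads in every library of the table. How reads shared by genes were handled was not stated. If they were left out, the CFB level is understated, which was not tested.

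The membrane regulators split. CD46 was lower with serum, at 122 and 126 CPM against 182 and 187 CPM (log2 fold change −0.58, SE 0.0364, FDR = 6.96e-45). CD55 was also lower, but by little, at 74.1 and 73.1 CPM against 86.6 and 82.5 CPM (log2 fold change −0.20, SE 0.0411, FDR = 3.05e-05). CD59, the inhibitor of the membrane attack complex, was higher, at 273 and 275 CPM against 210 and 212 CPM (log2 fold change 0.38, SE 0.0331, FDR = 2.01e-22). In none of these genes did the libraries of both controls overlap. Neither did those of SERPING1, which did not pass the test, and the share of all genes without overlap was not counted. There were 2.24 and 2.19 CD59 reads per CD46 read with serum, and 1.15 and 1.13 without.

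Markers of other cell types also differed between the controls. The summed level of 6 endothelial markers was 72.7 to 78.5 CPM in positive and 48.4 to 50.8 CPM in negative controls. TEK carried most of it, TIE1 and PECAM1 also passed a mean of 1 CPM, and the defining junction gene CDH5 had a mean of 0.0303 CPM. The 8 hepatocyte markers summed to 7.37 to 8.84 CPM in positive and 4.53 to 5.4 CPM in negative controls, nearly all from SERPINA1, and ALB had a mean of 0.121 CPM. The macrophage and leukocyte list summed to 4.79 to 5.4 and 3.9 to 4.67 CPM. Their part in the differences was not tested.

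**Figure D2:**
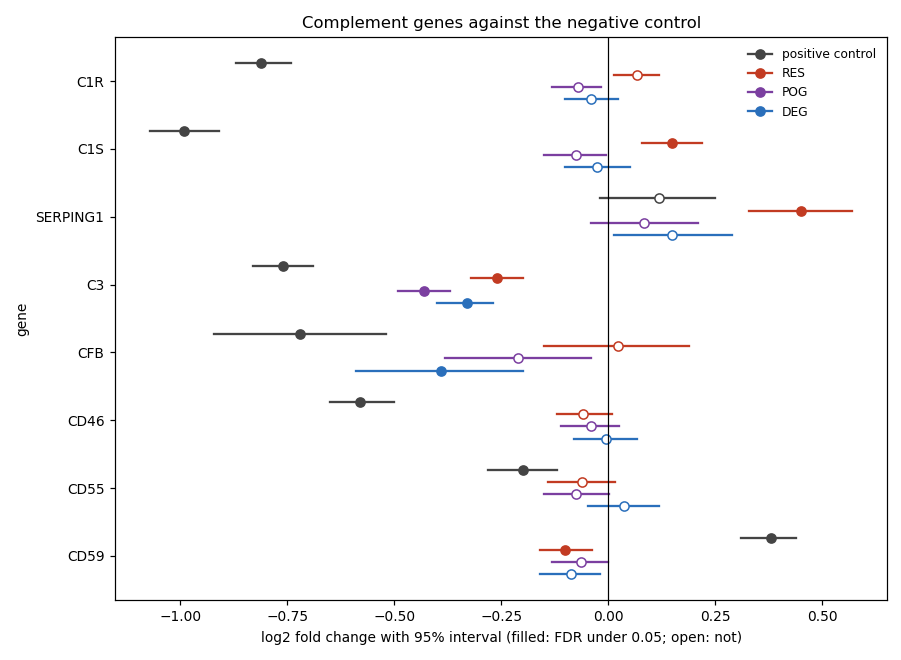
Log2 fold change against the negative control (x) of the 8 tested complement genes (y), with 95% intervals from edgeR's quasi-likelihood fit; colours are the positive control and the 3 compounds, and filled points passed FDR under 0.05 in the exact test. The positive control points reach −0.99 for C1S and 0.38 for CD59, and C3 is left of 0 in all 4 comparisons.

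The compounds were given to starved cells, and the question was how far each moved these genes from the starved state. C3 was the member that all 3 compounds lowered. RES also raised SERPING1 and C1S, and DEG also lowered CFB. No member moved by 0.5 or more on the log2 scale in any compound group. Few genes did: of all 17092 tested, 246 with RES, 395 with POG and 257 with DEG were called with such a change. The 3 comparisons share the negative control libraries, so they are not independent of each other.

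With RES, SERPING1 and C1S were higher and C3 and CD59 were lower, 2 of 8 members in each direction. Of all genes 4.94% were higher and 6.21% lower. With POG, C3 alone was called, 1 of 8 lower and 0 higher, where 8.57% of all genes were lower and 5.93% higher. With DEG, C3 and CFB were called, 2 of 8 lower and 0 higher, where 6.11% of all genes were lower and 3.52% higher. With so few calls, the POG share in particular is close to that of all genes. The members' median log2 fold change was −0.018 with RES, −0.073 with POG and −0.033 with DEG, against medians within 0.0023 of 0 over all genes.

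C3 had 517 and 520 CPM in negative controls. It had 422, 440 and 440 CPM with RES, 381, 379 and 393 CPM with POG, and 416 and 406 CPM with DEG. All 8 compound libraries lay below both negative controls and above both positive controls. The log2 fold change was −0.26 with RES (SE 0.0294, FDR = 1.48e-11), −0.43 with POG (SE 0.0294, FDR = 1.74e-33) and −0.33 with DEG (SE 0.0325, FDR = 3.43e-16). The reads of C3 per C1R read were 1.08 ± 0.0212 in negative controls (SD, n = 2). They were 0.86 ± 0.0119 with RES and 0.839 ± 0.016 with POG (SD, n = 3 each), and 0.878 ± 0.00599 with DEG (SD, n = 2).

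SERPING1 had 30.2, 30.3 and 28.9 CPM with RES, above every library of the other groups. Negative controls had 22.4 and 21.3 CPM, POG libraries 23, 24.2 and 22.3 CPM, and DEG libraries 23.1 and 25.4 CPM. RES raised it by a log2 fold change of 0.45 (SE 0.0598, FDR = 2.55e-11), or 1.36 times. With POG the value was 0.084 (95% interval −0.04 to 0.21, FDR = 0.432), and with DEG it was 0.15 (0.013 to 0.29, FDR = 0.176).

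C1S had 191, 193 and 185 CPM with RES against 168 and 175 CPM in negative controls, a log2 fold change of 0.15 (SE 0.0341, FDR = 0.00173). This call was lost without negative control replicate 1 (FDR = 0.169). C1S had 166, 162 and 160 CPM with POG (FDR = 0.178) and 169 and 167 CPM with DEG (FDR = 0.808), neither past the test. For C1R the values were 498, 505 and 511 CPM with RES (log2 fold change 0.068, FDR = 0.174), 460, 455 and 459 CPM with POG (−0.071, FDR = 0.131) and 472 and 464 CPM with DEG (−0.04, FDR = 0.593). Its RES libraries all lay above, and its POG and DEG libraries all below, those of the negative control, with 472 against 476 CPM in the closest pair.

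CFB had 10.4 and 11 CPM with DEG against 13.8 and 14.3 CPM in negative controls. The log2 fold change was −0.39 (SE 0.0956, FDR = 0.00146), and the call was lost without negative control replicate 2 (FDR = 0.0519) or DEG replicate 1 (FDR = 0.0775). With RES it had 14.7, 15.3 and 12.7 CPM, which overlap the negative controls (FDR = 0.94). With POG it had 11.3, 12.8 and 12.3 CPM, a log2 fold change of −0.21 that missed the threshold (FDR = 0.0812).

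The membrane regulators stayed near the starved level. CD46 had 173 to 182 CPM with RES, 177 to 182 CPM with POG and 181 to 187 CPM with DEG, against 182 and 187 CPM in negative controls, and passed the test with no compound (FDR = 0.349, 0.534 and 0.982). CD55 had 80.2 to 81.9 CPM with RES, 79.6 to 81.6 CPM with POG and 86.2 and 87.5 CPM with DEG, against 86.6 and 82.5 CPM, and likewise passed with none (FDR = 0.39, 0.226 and 0.708). CD59 had 200, 196 and 196 CPM with RES against 210 and 212 CPM, a log2 fold change of −0.10 (SE 0.0305, FDR = 0.0385). That call was lost when any 1 of the 5 libraries was left out (FDR = 0.0524 to 0.308). CD59 had 200 to 207 CPM with POG (FDR = 0.234) and 196 and 202 CPM with DEG (FDR = 0.145). No compound library exceeded 207 CPM of CD59, below both negative controls and both positive controls.

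The endothelial marker list was higher with RES than in negative controls, as it was with serum. With RES it was led by TEK, at a mean of 53.4 CPM. The summed level of the list was 63.8 to 70.7 CPM with RES, 43.7 to 46.5 CPM with POG and 46.8 to 47 CPM with DEG, against 48.4 to 50.8 CPM in negative controls. Over all libraries together, 3 of its 6 genes had a mean of 1 CPM or more. The part of this list in the SERPING1 and C1S differences was not tested. The summed level of the 10 macrophage and leukocyte markers was 3.99 to 4.31 CPM with RES, 3.36 to 3.51 CPM with POG and 2.97 to 3.41 CPM with DEG, against 3.9 to 4.67 CPM in negative controls. PTPRC, which defines leukocytes, had a mean of 0.0435 CPM over all libraries. The 8 hepatocyte markers summed to 4.24 to 5.99 CPM with RES, 5.99 to 6.71 CPM with POG and 5.29 to 5.5 CPM with DEG, against 4.53 to 5.4 CPM. The 12 osteoblast markers summed to 4908 to 5036 CPM with RES, 4753 to 4789 CPM with POG and 4765 to 4771 CPM with DEG, against 5264 to 5322 CPM, so all compound libraries lay below both negative controls. Nearly all of this sum came from COL1A1, COL1A2 and SPARC, with means of 2676, 1229 and 1071 CPM over all libraries, so it says little of the other markers. The part of these lists in the C3 and CFB differences, and in those of C3AR1 and ITGB2 given further on, was not tested. Of 6 osteoclast markers 1 (CTSK) reached 1 CPM, and the list summed to 13.1 to 14.1 CPM with RES and 11.2 to 11.6 CPM in negative controls.

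**Figure D3:**
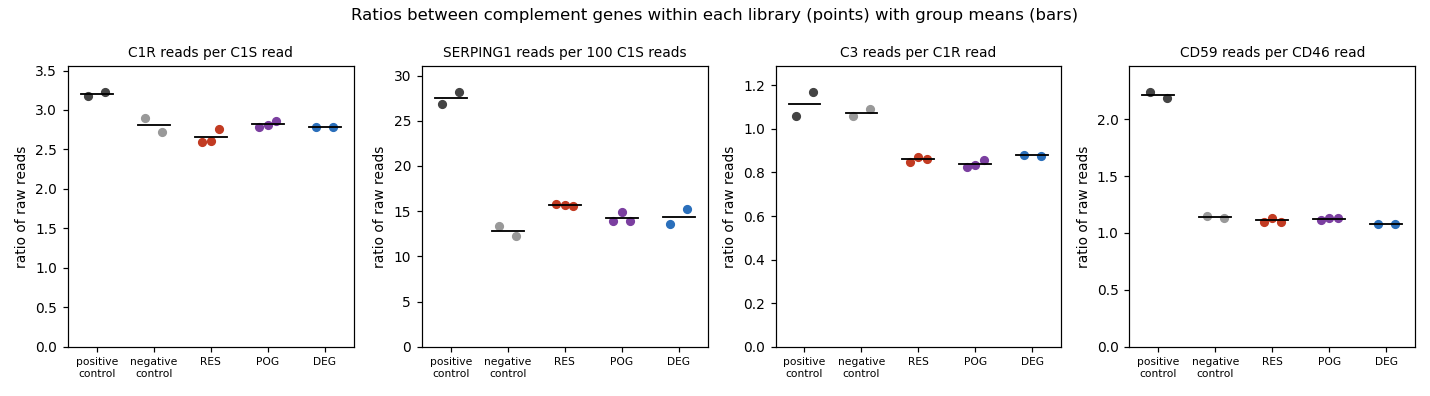
Ratios of raw reads between complement genes within each library (y, from 0) by group (x); points are libraries and bars are group means (2 or 3 libraries). SERPING1 per 100 C1S reads and CD59 per CD46 read are about 27.5 and 2.21 in positive controls and 12.8 and 1.14 in negative controls, and C3 per C1R read is below 0.9 in all compound libraries.

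Direct comparison of the compounds at the same dose set RES apart from the others. In 3 pairs of compounds, 8 tested members gave 24 comparisons. POG had less of 5 members than RES (C1R, C1S, SERPING1, C3 and CFB), and DEG had less of 4 (C1R, C1S, SERPING1 and CFB). No member passed the test as higher than with RES. Over all genes, 14.1% were lower and 13.7% higher in POG than in RES, and 10.8% were lower and 10.3% higher in DEG than in RES. If DEG is delphinidin-3-glucoside, POG and DEG are anthocyanins with the same sugar that differ in the hydroxy and methoxy groups of a single ring, whereas resveratrol is a stilbene without a sugar.

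The C1 protease genes and their inhibitor differed from RES in both groups. For SERPING1 the difference from RES on the log2 scale was −0.36 (SE 0.0518, FDR = 1.58e-10) with POG and −0.30 (SE 0.059, FDR = 1.43e-05) with DEG. For C1S it was −0.22 (SE 0.0302, FDR = 4.35e-10) and −0.17 (SE 0.0341, FDR = 5.7e-05). For C1R the differences were −0.14 (SE 0.0243, FDR = 1.59e-05) and −0.11 (SE 0.0273, FDR = 0.00667). In these genes no POG or DEG library reached the lowest RES library. The C1R call for DEG was lost without DEG replicate 1 (FDR = 0.0534) or replicate 2 (FDR = 0.146).

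For CFB the difference from RES was −0.41 with DEG (SE 0.0868, FDR = 4.29e-05) and −0.23 with POG (SE 0.0743, FDR = 0.0102). The POG and RES libraries overlapped, and that call was lost without RES replicate 1 (FDR = 0.062), RES replicate 2 (FDR = 0.116) or POG replicate 1 (FDR = 0.101). For C3 the difference of POG from RES was −0.17 (SE 0.0265, FDR = 2.87e-07). Between DEG and RES the C3 difference of −0.078 did not pass (95% interval −0.14 to −0.018, FDR = 0.0939).

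The membrane regulators did not pass the test between any pair. The 95% interval of POG minus RES was −0.043 to 0.076 for CD46, −0.082 to 0.053 for CD55 and −0.02 to 0.092 for CD59 on the log2 scale. For DEG minus RES the intervals were −0.015 to 0.12 for CD46, 0.022 to 0.17 for CD55 (FDR = 0.0618) and −0.05 to 0.075 for CD59.

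Between DEG and POG 0 of 8 members passed edgeR's exact test, where 1.05% of all genes did in either direction. At an unadjusted p under 0.05 there were 3 (C3, CD55 and CFB), and the share of all genes at that threshold is not given here. The quasi-likelihood test and DESeq2 also called 0, with 3 and 2 members at an unadjusted p under 0.05. The differences in DEG minus POG were 0.10 for C3 (95% interval 0.036 to 0.16, FDR = 0.171), 0.11 for CD55 (0.036 to 0.19, FDR = 0.165) and −0.18 for CFB (−0.36 to −0.00097, FDR = 0.445). Adjusted over the genes of all 3 pairs together, edgeR's exact test gave FDR = 0.0357 for C3 and 0.0325 for CD55, so these calls depended on how the p-values were adjusted. For SERPING1 the interval was −0.057 to 0.19, for C1S −0.02 to 0.12 and for C1R −0.024 to 0.087, and for CD46 and CD59 −0.032 to 0.10 and −0.086 to 0.039. A missed threshold does not show that POG and DEG act alike.

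**Figure D4:**
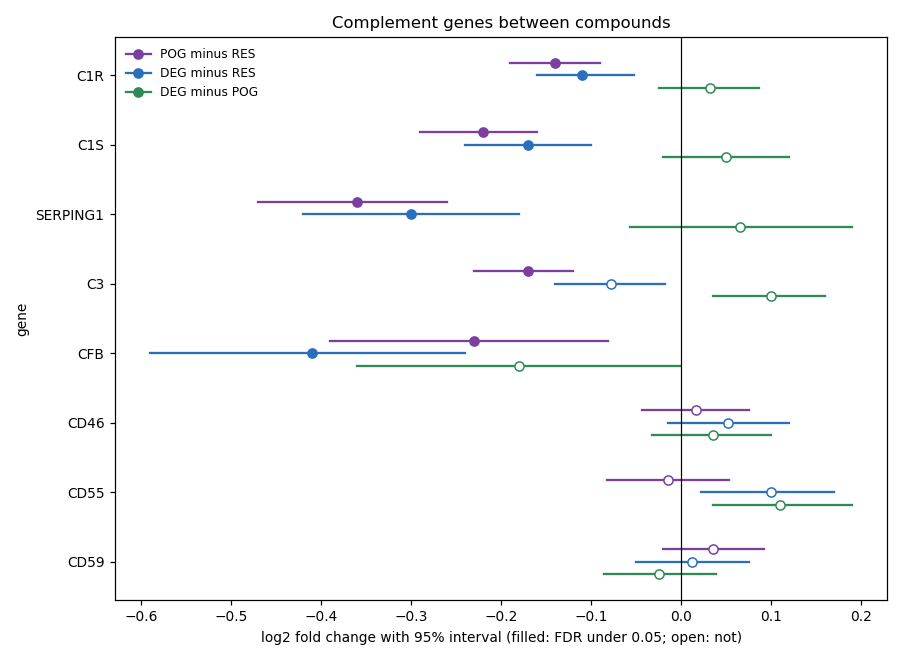
Differences between compounds on the log2 scale (x) for the 8 tested complement genes (y), with 95% intervals from edgeR's quasi-likelihood fit; filled points passed FDR under 0.05 in the exact test within their own pair. POG minus RES and DEG minus RES are below 0 for C1R, C1S, SERPING1, C3 and CFB, and every DEG minus POG point is open.

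The order of the groups differed from gene to gene. C1R and C1S ran from RES through the negative control, DEG and POG down to the positive control, and the negative control and DEG overlapped for C1S. C3 ran from the negative control through RES, DEG and POG to the positive control, with no overlap between neighbours. For SERPING1 only RES stood clear, and the remaining groups each overlapped their neighbours. CFB ran from RES and the overlapping negative control through POG and DEG to the positive control. CD55 put DEG and the negative control above RES and POG, with overlap inside each of those pairs, and the positive control lowest. For CD46 only the positive control stood clear at the low end, and for CD59 the positive control stood clear at the high end.

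The wider pathway was read from 55 other complement genes, of which 27 passed the low-count filter, 9 had no read and 19 had too few. The recognition subunits of C1 were nearly absent: C1QA and C1QB had 0 reads and C1QC 1 read in all libraries, whereas C1R RNA reached 511 CPM. Equally scarce were the lectin MBL2, with 0 reads, and the late components C6 (1 read), C7 (22), C8A (0), C8B (1) and C9 (15). These totals compare with 517973454 reads in all libraries. The late components C8G and C5 did pass the low-count filter, at means of 0.398 and 6.09 CPM over all libraries. C4BPA and CR1, soluble and membrane cofactors of factor I, had 2 and 5 reads.

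With serum, 4 of the 27 tested genes were higher and 9 lower than without, beside 21.4% and 20.9% of all genes. C2, the protease that C1s cleaves, was lower (1.85 ± 0.531 against 3.37 ± 0.206 CPM, FDR = 1.82e-05), as was C5, the target of the C3-containing convertases (4.68 ± 0.786 against 6.3 ± 0.408 CPM, FDR = 0.00191). The fluid-phase regulator clusterin (CLU; 24.1 ± 1.54 against 37.1 ± 0.0345 CPM, FDR = 5.69e-22) was lower too. ITGB2, the shared beta chain of the complement receptors, had the largest fall among the named genes, with 2.1 and 2.04 CPM against 6.46 and 5.51 CPM (log2 fold change −1.53, SE 0.162, FDR = 1.45e-19). The anaphylatoxin receptor C5AR1 was lower as well (0.723 ± 0.05 against 1.47 ± 0.298 CPM, FDR = 0.00196), and calreticulin (CALR) by little (log2 fold change −0.11, FDR = 0.0103). The genes higher with serum included C1QBP, a mostly mitochondrial protein that binds C1q (log2 fold change 0.66, SE 0.0469, FDR = 4.94e-39), and the scavenger receptor COLEC12 (0.31, SE 0.115, FDR = 0.0193). Means are ± SD of 2 libraries in each control.

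With the compounds fewer of the 27 moved. RES raised 1 and lowered 1, POG raised 1 and lowered 5, and DEG raised 0 and lowered 5. As shares called in either direction these are 7.41% with RES (11.2% of all genes), 22.2% with POG (14.5%) and 18.5% with DEG (9.63%). PTX3, a long pentraxin that binds C1q, was lowered by all compounds. It had 62 and 64.8 CPM in negative controls, 51.5 to 52.1 CPM with RES, 50.1 to 51.1 CPM with POG and 50.2 and 51.7 CPM with DEG (FDR = 2.24e-09, 2.94e-12 and 8.6e-09). With serum it had 62.6 and 60.5 CPM and did not pass (FDR = 0.507).

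Some receptor genes for complement fragments were lower with POG and DEG. C3AR1, the C3a receptor, had 2.63 and 2.97 CPM in negative controls. It had 1.18, 1.84 and 1.38 CPM with POG (log2 fold change −0.94, SE 0.188, FDR = 1.17e-05), 1.76 and 1.88 CPM with DEG (−0.62, SE 0.206, FDR = 0.027) and 3.07, 3.46 and 3.61 CPM with RES (0.27, SE 0.172, FDR = 0.344). These levels rest on 53 to 161 reads a library. ITGB2 was lowered by POG (3.99 ± 0.612 CPM, SD, n = 3; FDR = 0.000309) and DEG (4.36 ± 0.062 CPM, SD, n = 2; FDR = 0.0293) from 5.98 ± 0.672 CPM (SD, n = 2). POG raised the receptor alpha chain ITGAX (8.18 ± 0.21 against 6.12 ± 0.837 CPM, FDR = 0.00105). C1RL and CLU were also lowered by POG (FDR = 0.0238 and 0.027) and by DEG (FDR = 0.000426 and 0.049). The POG count of 6 fell to 3 without negative control replicate 2, while calls over all genes fell from 2478 to 1364. The DEG count of 5 fell to 2 with the quasi-likelihood test or DESeq2, and to 1 or 2 when any 1 of its 4 libraries was left out. Calls over all genes with DEG fell as well, from 1646 to between 850 and 931 when a library was left out.

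Against RES, POG was lower in 6 of the 27 and higher in 1, and DEG was lower in 8 and higher in 1. That is 25.9% called for POG, below the 27.9% of all genes, and 33.3% for DEG, where 21.2% of all genes were called. The log2 differences of POG and DEG from RES were −1.21 (SE 0.164, FDR = 1.53e-12) and −0.89 (SE 0.185, FDR = 1.77e-05) for C3AR1. For C5AR1, the C5a receptor, they were −0.69 (SE 0.224, FDR = 0.00874) and −0.74 (SE 0.261, FDR = 0.0216). Leaving out DEG replicate 1 or 2 brought the DEG count of 9 down to 3 or 4, and calls over all genes from 3616 to 2068 or 2208. CALR was the gene that was higher than with RES in both, by 0.15 (FDR = 1.36e-05) and 0.11 (FDR = 0.00963). Between DEG and POG 0 of the 27 were called in edgeR's exact test, the quasi-likelihood test or DESeq2. At an unadjusted p under 0.05 these tests had 3, 3 and 2, with no share of all genes given at that threshold.

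**Figure D5:**
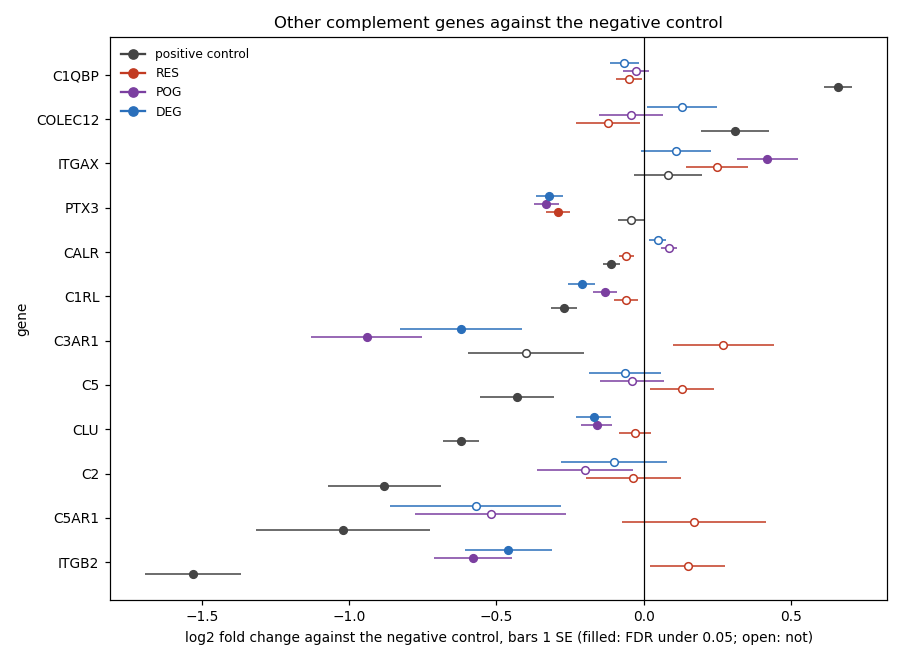
Log2 fold change against the negative control (x) of 12 other complement genes (y); bars are 1 SE, colours are the positive control and the 3 compounds, and filled points passed FDR under 0.05 in edgeR's exact test. ITGB2 reaches −1.53 in the positive control, and PTX3 is filled and left of 0 for the 3 compounds.

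Profiles over the 12 libraries were compared with 13406 genes of at least 1 CPM for the members that moved by 0.5 or more on the log2 scale. Each profile was centred on its own mean, and likeness was the mean absolute log2 difference over the libraries. HLA-F (0.0393) and PER3 (0.0448) were nearest to C1R. IRAK3 (0.0503) was nearest to C1S. For C3 they were SVIL (0.0534) and SLC6A16 (0.0607), for CFB ADAMTS5 (0.0737) and KCNN3 (0.0784), and for CD46 ACSL3 (0.0258) and WDR37 (0.0267). SVIL had C3's order of differences from the negative control only in part, with a log2 fold change of −0.69 in the positive control, −0.15 with RES, −0.37 with POG and −0.41 with DEG. No nearest gene of C1R or C1S was another member, and the measure says nothing of shared function.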

How the data were processed

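The authors examined reads with FastQC, aligned them to hg38 with STAR (BWA MEM was also named) and counted reads on Ensembl genes with featureCounts, and they deposited raw read counts per gene. Versions, annotation release, strand setting and the treatment of reads shared by genes are not given in the sources used here, so overlapping genes carry uncertain counts. From these counts, genes were filtered with filterByExpr by group (17092 kept, holding 99.967% of reads), scaled by TMM and tested with the exact test of edgeR 4.0.16 in R 4.3.3, the test the authors named, with dispersions from all 12 libraries and Benjamini-Hochberg adjustment over all genes tested in a comparison. The quasi-likelihood fit of edgeR gave standard errors and intervals, and CPM were computed on TMM-scaled totals. There were 7 comparisons, 4 with the negative control and 3 between compounds. The test was checked on simulated counts.

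The members and gene lists were chosen with earlier results of these data known. The text names all 9 members, the other complement genes averaging 1 CPM or more that were called in at least 1 comparison with the negative control, and the 2 genes nearest in profile to each member called with an absolute log2 fold change of at least 0.5; marker genes named beside their list were chosen after their values were seen. Some genes this rule chose are not reported here by name and stay in the counts. The 55 other complement genes came from textbook membership of the pathway. Alternatives tried were the quasi-likelihood test, DESeq2 1.42.0, other scalings, filters, dispersions and thresholds, and leaving out each library. The joint adjustment over the 3 compound pairs was added after seeing the data. Replicate numbers follow accession order and only name libraries. The labels give no batch or date.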

Additional observations from a re-analysis of the deposited data

How the results depend on the processing

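Of 23 member differences past FDR under 0.05 in the exact test, 18 kept direction and call under every test, scaling, filter, dispersion and left-out library tried, and 5 lost the call under at least 1; none changed sign. Among 33 that did not pass, 12 alternatives moved a value past the threshold and 9 turned the sign of a value near 0; the cause was not tested. Plain library totals gave 0.013 for CD46 with DEG against the negative control. Leaving out single libraries gave −0.03 to 0.018 for that difference, −0.058 to 0.01 for C1S with DEG, −0.034 to 0.10 for CFB with RES, −0.0099 to 0.034 for CD59 in DEG minus RES and −0.0042 to 0.13 for SERPING1 in DEG minus POG. CD59 with RES also lost its call under plain totals (FDR = 0.177) and with no filter (FDR = 0.163), and C1R with RES gained one under plain totals (FDR = 0.0289).

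The members called were 7 in the serum comparison under every single left-out library. They were 2 to 3 with RES (main 4), 1 to 2 with DEG (main 2) and 1 with POG. Calls over all genes fell too, to between 881 and 1465 with RES (main 1906). With DEG they were 850 to 931 (main 1646), and with POG 1362 to 1941 (main 2478). For POG, DESeq2 gave 2 (C1R added) and dispersions from the compared groups gave 5. For DEG against POG those dispersions gave 2 (C3 and CD55), as did the joint adjustment. Over all genes, those dispersions took the calls from 2478 to 3620 with POG and from 179 to 838 for DEG against POG. DESeq2 called 1892 genes with POG. An absolute log2 fold change of at least 0.5 left 0 with RES, POG and DEG and 0 in POG and DEG against RES. Over all 17092 genes it left 246 with RES, 395 with POG and 257 with DEG. Against RES it left 712 with POG and 565 with DEG. Of the other complement genes that limit left 8 with serum, 0 with RES, 2 with POG, 1 with DEG, 4 in POG against RES and 5 in DEG against RES. Left-out libraries gave 3 to 5 with POG, 1 to 2 with DEG and 3 to 9 in DEG against RES. For DEG the quasi-likelihood test, DESeq2 and FDR under 0.01 gave 2 each and no filter gave 3. For DEG against RES, DESeq2 and FDR under 0.01 gave 5 each, and 2921 and 2404 over all genes (main 3616). For DEG against POG, dispersions from the compared groups gave 1 and the joint adjustment 2.

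Scaling shifted how all calls split: under plain totals 64% of called genes were higher with RES (44.3% with TMM), 56% with POG (40.9%) and 49.3% with DEG (36.6%), and with serum the share went the other way, to 41% (50.6%), while the median gene moved by less than 0.05. No paired analysis was possible because the labels give the groups no shared replicate numbers.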

Other observations

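Thrombomodulin (THBD), a membrane glycoprotein that aids inactivation of C3b and activation of protein C, was chosen here after its values were seen, since its mean was under 1 CPM. It had 48 and 28 reads in positive controls (0.971 and 0.664 CPM) and 0 and 2 reads in negative controls. The RES libraries had 7, 2 and 2 reads, the POG libraries 1, 12 and 0, and the DEG libraries 0 and 3. The serum difference passed edgeR's exact test (FDR = 1.55e-07), and both positive controls lay above all other libraries.

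SUSD4, a membrane regulator of the classical C3 convertase, was also below the 1 CPM minimum and chosen after its values were seen. It had a mean of 0.485 ± 0.122 CPM with RES (SD, n = 3), 0.155 ± 0.0433 CPM with POG (SD, n = 3) and 0.167 ± 0.0199 CPM with DEG (SD, n = 2). With POG and DEG it was lower than with RES (edgeR's exact test, FDR = 0.00178 and 0.0172). Negative controls had 0.255 ± 0.0409 CPM (SD, n = 2), and no compound passed the same test against them (FDR = 0.249 with RES, 0.484 with POG and 0.701 with DEG). All these levels are near the floor.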
